A study of Rattus norvegicus with 10 samples.

Results

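Whey proteins are the proteins that stay in solution when the caseins of milk curdle, and some further secreted proteins reach milk by the same epithelial cell. Transcripts of 6 such genes, Wap, Glycam1, Tf, Pigr, Spp1 and Cel, were read from the fat layer of rat milk. They were taken by symbol from a table of 16748 genes, each symbol matched 1 row, and all 6 varied between libraries and entered every test. The study asked how the housing of the mother relates to her milk. Environmentally enriched (EE) dams lived in a large multi-level cage with ramps, tubes and toys, and standard-housed (SD) dams lived in standard laboratory cages. All dams were wild-type Sprague-Dawley rats, housed as pairs of females in either condition. Shortly before birth SD dams were housed singly, while a divider separated EE dams within their cage, so cage sharing differed between the groups. In both groups milk was drawn on postnatal day 10 under isoflurane after oxytocin, following a spell away from a litter that had been cross-fostered and standardized to 10 pups. The labels name 5 EE and 5 SD libraries as biological replicates without naming dams or cages. Samples that shared a cage would depend on each other, and the p-values describe only how these 10 libraries vary.

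Milk proteins are made by the secretory cells that line the alveoli of the mammary gland. Prolactin acts on these cells through the transcription factor STAT5, together with glucocorticoids, and raises the transcription of casein and whey protein genes. Secretory cells release fat globules in an envelope of plasma membrane that can trap cytoplasm, which is why milk fat holds epithelial RNA. It is not the whole gland, and fewer cells of a type and less RNA per cell cannot be told apart in it. Wap encodes whey acidic protein, a major whey protein of rodents. Glycam1 encodes a small mucin-like glycoprotein that is secreted into milk and also serves as an endothelial ligand of L-selectin in lymph nodes. Tf encodes transferrin, which carries iron, and Pigr the polymeric immunoglobulin receptor, which ferries IgA across the epithelium. Spp1 encodes osteopontin, a phosphoprotein made by epithelium and by macrophages, among others. Cel encodes the bile salt-stimulated lipase, which the pancreas secretes and, in several mammals, also the mammary gland.

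The DNA just upstream of the start of transcription is shown for Glycam1 and Wap, the members with the most counts, and for Csn2, which encodes beta-casein, because STAT5 acts at such regions. Each line gives 250 bases before the RefSeq start on the strand of the gene, from 5′ to 3′, in the assembly GRCr8, which is not the build rn6 to which the reads were aligned. Capitals mark matches to the STAT5 letters TTCNNNGAA, where N is any base.
Glycam1, chr7:136561300-136561549, minus strand: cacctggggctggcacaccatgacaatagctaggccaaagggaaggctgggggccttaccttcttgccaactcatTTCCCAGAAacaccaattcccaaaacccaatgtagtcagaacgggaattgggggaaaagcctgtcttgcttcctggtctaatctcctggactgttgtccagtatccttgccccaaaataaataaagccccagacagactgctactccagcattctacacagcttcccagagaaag
Wap, chr14:85719160-85719409, minus strand: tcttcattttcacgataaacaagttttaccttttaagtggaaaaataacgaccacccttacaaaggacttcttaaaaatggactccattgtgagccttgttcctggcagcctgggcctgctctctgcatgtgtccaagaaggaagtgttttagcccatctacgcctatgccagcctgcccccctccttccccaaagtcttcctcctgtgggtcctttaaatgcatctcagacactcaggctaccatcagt
Csn2, chr14:20601574-20601823, plus strand: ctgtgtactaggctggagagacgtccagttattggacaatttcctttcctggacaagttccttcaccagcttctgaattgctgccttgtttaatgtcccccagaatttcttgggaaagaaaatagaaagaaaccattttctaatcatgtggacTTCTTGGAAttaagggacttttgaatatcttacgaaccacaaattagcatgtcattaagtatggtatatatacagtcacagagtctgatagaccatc
The match in Glycam1 was TTCCCAGAA and began 175 bases before the start, and the one in Csn2 was TTCTTGGAA at 97 bases. Matches also stood 100 to 102 bases before the starts of Csn1s1, Csn1s2a and Csn1s2b. Of the 6 members only Glycam1 had a match in this window, and the windows of Wap, Tf, Pigr, Spp1, Cel and Csn3 held none. The letters read the same on both strands, and 7.7% of 33469 rat windows of this length held them. The letters TATAAA on the sense strand stood in the windows of Tf, 52 bases before the start, and Spp1, at 204 bases, and in 8.1% of all windows. A match is a run of letters and was not tested as a binding site.

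With M for 1000000, each library held 35.4 to 67.7 M normalized counts in EE and 58.7 to 70.4 M in SD, estimated to come from 51.8 to 63.8 M reads in EE and 43.3 to 70.2 M in SD. A normalized count is a read count divided by a scaling factor of its library, returned here from the deposited log2 values, and it grows with the length of a transcript, so levels are compared between libraries and not between genes. Summed counts of the 5 casein genes were lowest in EE replicates 3 and 5, at 17.8 and 14.3 M, against 30.8 to 41.3 M in the other EE libraries and 33.9 to 42.5 M in SD. All 10 markers of luminal and secretory epithelium were present, with summed counts of 738110 to 1446200 in EE and 1011700 to 1510200 in SD. Macrophage markers summed to 521 to 1974 counts in EE and 754 to 2818 in SD, and those of B and plasma cells to 0 to 3.16 in EE and 0 in every SD library, with Cd79b, Mzb1 and Pax5 at 0. Of the 8 listed markers of B and plasma cells 6 were in the table, and Jchain and Cd79a were missing from it.

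No member passed an adjusted p of 0.05 (limma, Benjamini-Hochberg over 12992 genes). The same held for all genes, of which 0 passed (0.0%), and the adjusted p of the members lay between 0.626 and 0.957. The paper, which used DESeq2 with a fold change threshold and states 4 to 5 samples per housing group, did report genes past an adjusted p of 0.05. That test was not repeated here, and its libraries may differ from those used here. At an unadjusted p under 0.05, Glycam1 was lower in EE and no member was higher, beside 526 genes lower (4.05%) and 435 higher (3.35%) of all tested. Other scalings turned that split round, to 392 lower and 619 higher after median centring, 390 and 683 after quantile normalization, and 369 and 620 scaled on genes outside the caseins and members. The unadjusted p of Glycam1 was 0.0535 on log2 of the count plus 1 and 0.0624 with the last of these scalings (limma). It was 0.0537 without EE replicate 3 and 0.114 without EE replicates 3 and 5 (limma), and no member was below 0.05 in these settings. Without the variance trend it was 0.00313 and with robust moderation 0.000264, where Wap was also lower, at 0.0322 and 0.00299 (limma). Pigr was lower without EE replicate 4, at 0.0429 (limma). Cel was higher after quantile normalization, at 0.0467, and without SD replicate 3, at 0.0473 (limma). No member passed an adjusted p of 0.05 in any setting, the lowest being 0.366. Leaving out EE replicate 3 also moved the count of all genes lower to 333. Log2 differences were below 0 for 5 of 6 members and for 52.0% of all genes, and for 3 of 6 members after quantile normalization, which moved Wap and Tf above 0. That scaling gives each gene the value of its rank, so a gene of nearly constant rank, such as Wap, can hardly differ under it. Leaving out SD replicate 4 moved the count of genes called higher by more than 1.5 times, so values without it are given beside the others. Without SD replicate 4, 1 of 12955 genes passed the adjusted threshold (0.00772%) and no member did, Glycam1 was again the only member below an unadjusted p of 0.05, beside 679 genes lower (5.24%) and 667 higher (5.15%), and 5 of 6 members and 50.3% of genes lay below 0. For no member did the EE and SD libraries separate fully. Every EE library lay below every SD library for 63 genes (0.485%) and above for 98 (0.754%).

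**Figure D1:**
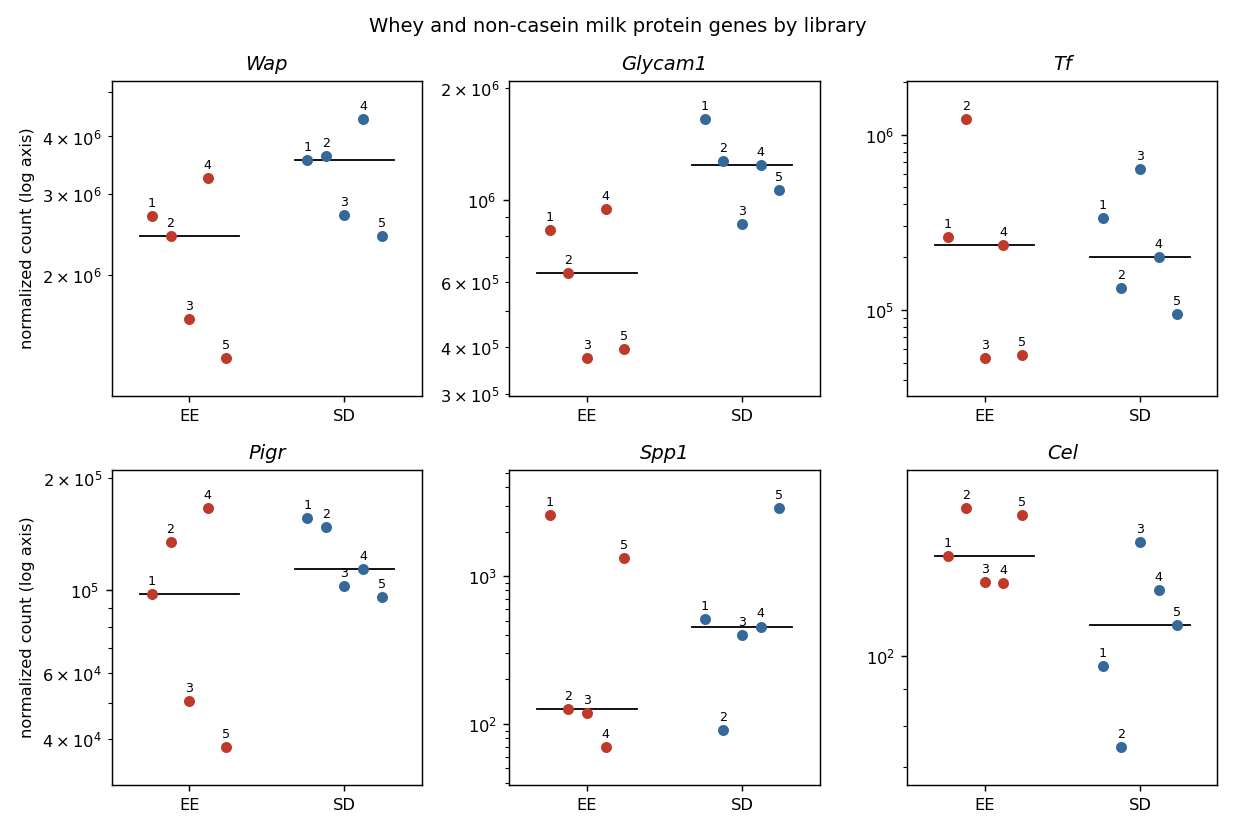
Normalized counts of the 6 genes in each library, on a logarithmic axis, with EE libraries left of SD libraries, points numbered by replicate and bars at the group median. Glycam1 has 4 of 5 EE points below all SD points, while Tf and Spp1 spread widely within each group.

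Glycam1 showed the largest separation of the members. EE libraries had 0.826, 0.633, 0.374, 0.945 and 0.395 M normalized counts of Glycam1, against 1.65, 1.27, 0.862, 1.24 and 1.06 M in SD libraries. Among EE libraries 4 of 5 lay below all SD libraries, and EE replicate 4 lay above SD replicate 3. EE milk averaged 0.635 ± 0.254 M counts and SD milk 1.22 ± 0.291 M (SD, n = 5 each), a ratio of the means of 0.522. The log2 difference of Glycam1 was -1.01 (SE 0.37, unadjusted p = 0.0176, adjusted p = 0.626 from limma; two-sided exact permutation test, p = 0.0159). Without SD replicate 4 it was -0.99 (SE 0.39, adjusted p = 0.428 from limma; exact p = 0.0397), and the smallest p that the exact test can give is 0.00794 over all 10 libraries. Without EE replicates 3 and 5, the libraries with the lowest casein counts, the difference was -0.59 (exact p = 0.0536).

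Taken as a share, which does not depend on how libraries were scaled, Glycam1 made up 1.198% ± 0.215 of all normalized counts in EE milk and 1.84% ± 0.350 in SD milk (SD, n = 5 each, exact permutation p = 0.0159), a call lost without EE replicates 3 and 5 (exact p = 0.0893). Set against the caseins of the same library, there were 26.3, 20.6, 21.0, 22.9 and 27.5 counts of Glycam1 per 1000 casein counts in EE, against 38.9, 31.0, 24.6, 29.1 and 31.3 in SD. The groups overlapped only where EE replicates 1 and 5 exceeded SD replicate 3. The log2 ratio was lower in EE by -0.38 (exact permutation p = 0.0317), and by -0.40 without SD replicate 4 (p = 0.0397, same exact test). This call was lost on leaving out EE replicate 2, 3 or 4 or SD replicate 1, each at an exact p of 0.0556, and without EE replicates 3 and 5 the log2 ratio was -0.41 (exact p = 0.0536).

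Wap, with the most counts of the 6, stood lower in EE milk in counts and level with SD milk once set against the caseins. EE libraries had 2.69, 2.43, 1.61, 3.25 and 1.32 M counts of Wap, against 3.56, 3.62, 2.70, 4.36 and 2.42 M in SD libraries. The groups overlapped, and EE replicates 3 and 5 lay below all SD libraries. The means were 2.26 ± 0.791 M in EE and 3.33 ± 0.778 M in SD (SD, n = 5 each). EE minus SD was -0.61 on the log2 scale (SE 0.52, adjusted p = 0.835 from limma, and exact permutation p = 0.0635), and -0.50 without SD replicate 4 (exact p = 0.127). It was -0.24 without EE replicates 3 and 5 (exact p = 0.286). Quantile normalization gave 0.02, but Wap ranked below Csn1s1, Csn2 and Csn1s2a in every library. Its rank was thus nearly fixed, and that scaling can hardly show a difference. Fitted without the variance trend, the difference of -0.61 had an SE of 0.25 (unadjusted p = 0.0322, adjusted p = 0.621 from limma).

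There were 85.7, 78.9, 90.3, 78.6 and 92.0 counts of Wap per 1000 casein counts in EE libraries and 84.0, 88.4, 77.0, 102.6 and 71.5 in SD libraries. All EE values lay inside the SD range. EE replicates 3 and 5, which had the fewest counts of Wap, had the highest such ratios in EE. The log2 ratio differed by 0.02 (exact permutation p = 0.905).

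**Figure D2:**
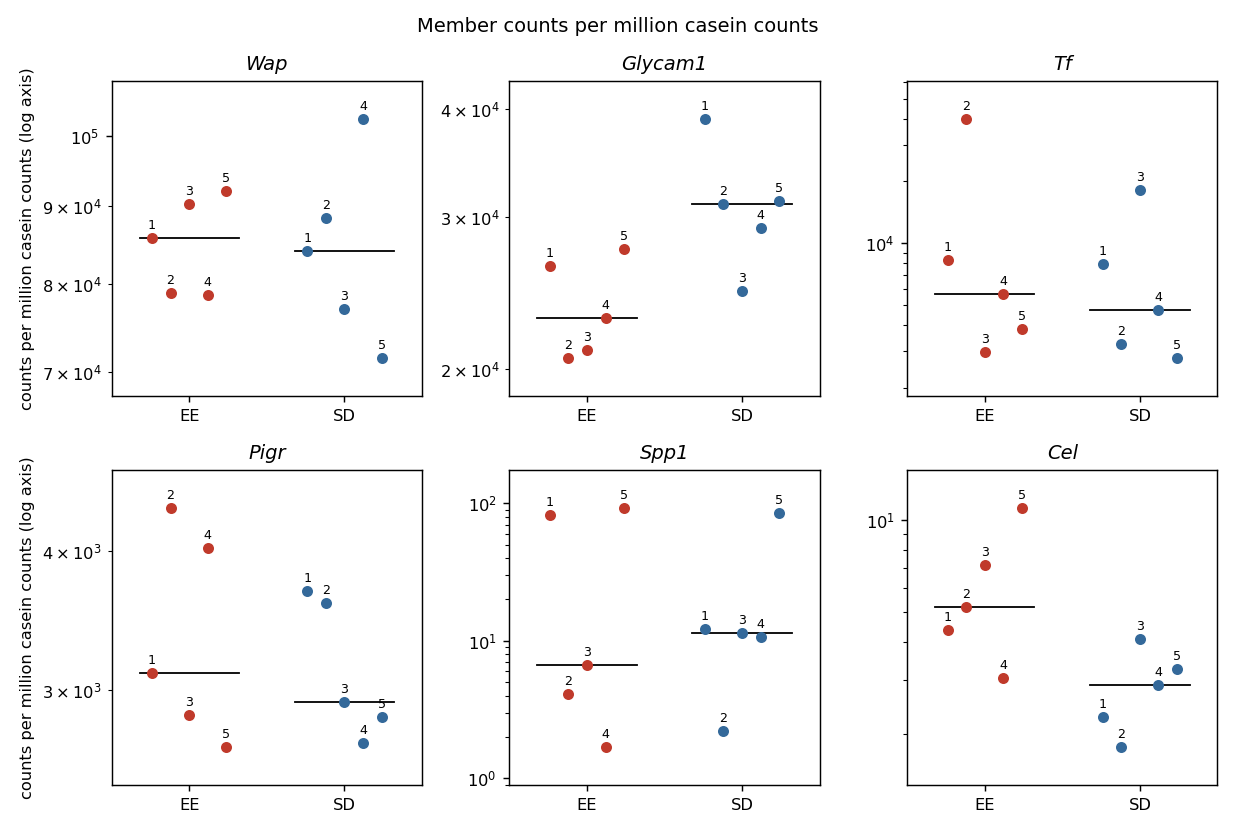
Counts of each gene per 1000000 casein counts of the same library, on a logarithmic axis, with EE libraries left of SD libraries, points numbered by replicate and bars at the group median. Glycam1 lies lower in EE, Cel higher, and the EE values of Wap lie inside the SD range.

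Tf had 261070, 1224500, 53072, 234260 and 54940 counts in EE libraries, against 334210, 133380, 634720, 201050 and 94267 in SD libraries. It spread 23.1-fold within EE and 6.73-fold within SD, with EE replicate 2 highest and EE replicates 3 and 5 lowest of all 10. The means were 365570 ± 489930 in EE and 279520 ± 218510 in SD (SD, n = 5 each), while EE minus SD was -0.26 on the log2 scale (SE 0.80, adjusted p = 0.957 from limma, and exact permutation p = 0.794), so the mean and the log2 difference had opposite signs. Without EE replicates 3 and 5 the log2 difference was 0.93 (exact p = 0.321). C3, the central complement component and the secreted milk protein gene nearest to Tf over the 10 libraries, also peaked in EE replicate 2, at 44643 counts against 1622 to 7287 in the other EE libraries and 4297 to 9990 in SD. Of the liver, the main source of transferrin in the body, the markers Alb, Apoa2, Ttr and Fgb were at 0 in every library, and all 6 markers summed to 9.55 to 37.1 counts in EE and 14.6 to 44.8 in SD.

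Pigr had 97625, 134420, 50665, 166120 and 38216 counts in EE libraries, against 155890, 147310, 102460, 114220 and 96207 in SD libraries. EE replicates 3 and 5 lay below all others, and EE replicate 4 was the highest of the 10. The means were 97409 ± 54267 in EE and 123220 ± 26874 in SD (SD, n = 5 each), with a log2 difference of -0.52 (SE 0.37, adjusted p = 0.784 from limma; exact permutation p = 0.294). It was 0.10 without EE replicates 3 and 5 (exact p = 0.750). Pigr made up 0.177% of all counts in EE and 0.187% in SD (exact permutation p = 0.730).

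Spp1 varied most within the groups. EE libraries had 2595, 125, 118, 70.2 and 1324 counts of Spp1, against 515, 90.6, 401, 456 and 2889 in SD libraries. High libraries stood in both groups, EE replicates 1 and 5 and SD replicate 5, and the spread was 37.0-fold in EE and 31.9-fold in SD. EE minus SD was -0.37 on the log2 scale (SE 0.89, adjusted p = 0.941 from limma, and exact permutation p = 0.714), and it lay above 0 without EE replicate 4, at 0.05, and without SD replicate 5, at 0.21. The macrophage markers Lyz2 and Cd68 were high in the libraries with most Spp1, and also in SD replicate 4. Lyz2, a lysozyme, had 1024, 195, 336, 77.8 and 654 counts in EE and 163, 132, 452, 934 and 1407 in SD, and Cd68 had 174, 16.5, 34.3, 9.59 and 89.1 in EE and 54.3, 24.4, 68.7, 125 and 183 in SD. C1qc, a complement subunit made by macrophages, had 18.2, 47.2, 56.8, 14.9 and 43.2 in EE and 20.4, 57.8, 113, 179 and 173 in SD. It was low in EE replicate 1, where Spp1 was high. In EE replicate 5, also high in Spp1, C1qc lay below EE replicates 2 and 3, where Spp1 was low. All 11 macrophage markers, Lyz2 and Cd68 included, summed to 1974, 934, 958, 521 and 1236 counts in EE and 754, 760, 1577, 2163 and 2818 in SD. The 11 macrophage markers were all in the table, none was at 0 throughout, and each had a log2 difference below 0. Their part in the Spp1 values was not tested.

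**Figure D3:**
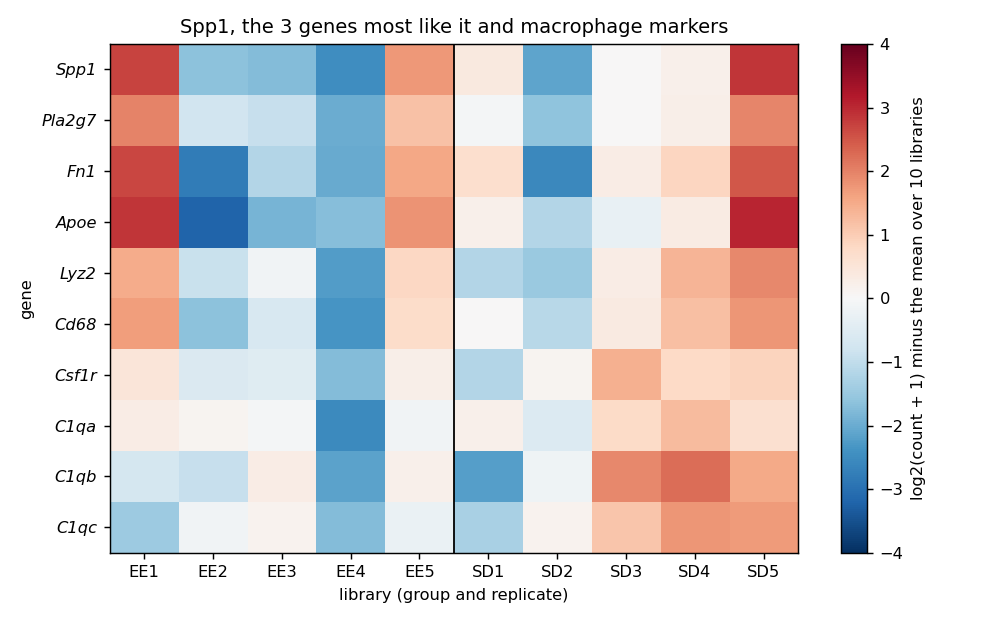
Levels of Spp1, of the genes whose levels followed it most closely and of macrophage markers in each library, EE libraries left of SD libraries, coloured by the difference in log2(count + 1) from the mean of the gene over the 10 libraries. EE replicates 1 and 5 and SD replicate 5 are high for Spp1, Pla2g7, Fn1 and Apoe together.

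Cel was the only member whose log2 difference lay above 0 over all 10 libraries. EE libraries had 138, 161, 127, 126 and 157 counts of Cel, against 96.7, 74.8, 144, 124 and 111 in SD libraries. All EE libraries lay above 4 of the 5 SD libraries, and SD replicate 3 lay inside the EE range. The means were 142 ± 16.3 in EE and 109.9 ± 26.2 in SD (SD, n = 5 each), a ratio of 1.29. EE minus SD was 0.25 on the log2 scale (SE 0.14, adjusted p = 0.717 from limma, and exact permutation p = 0.0556), and 0.28 without SD replicate 4 (adjusted p = 0.527 from limma; exact p = 0.0556). Cel rested on an estimated 119 to 264 reads per library in EE and 71 to 120 in SD. The 95% exact Poisson interval ran from 139 to 177 counts in EE replicate 5 and from 59.0 to 93.5 in SD replicate 2, and covers counting error only.

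Relative to the whole library the difference in Cel was larger, and EE replicates 3 and 5, which had the smallest totals, had the highest shares. Cel made up 2.93 ± 0.965 of every 1000000 normalized counts in EE and 1.69 ± 0.474 in SD (SD, n = 5 each, exact permutation p = 0.0238, and p = 0.0476 without SD replicate 4). That call was lost without SD replicate 1 or 2 (exact p = 0.0635 each) and without EE replicates 3 and 5 (exact p = 0.107). The log2 ratio to the caseins differed by 1.01 (exact permutation p = 0.0238), and by 0.57 without EE replicates 3 and 5 (exact p = 0.107). The call on this ratio was lost without SD replicate 1 or 2, each at an exact p of 0.0556. Of the pancreatic acinus, which secretes the enzyme, the markers Cpa1, Cpb1, Ctrb1, Amy2a3 and Pnlip were at 0 in every library. All 8 markers summed to 11.8 to 29.98 counts in EE and 5.43 to 20.5 in SD.

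**Figure D4:**
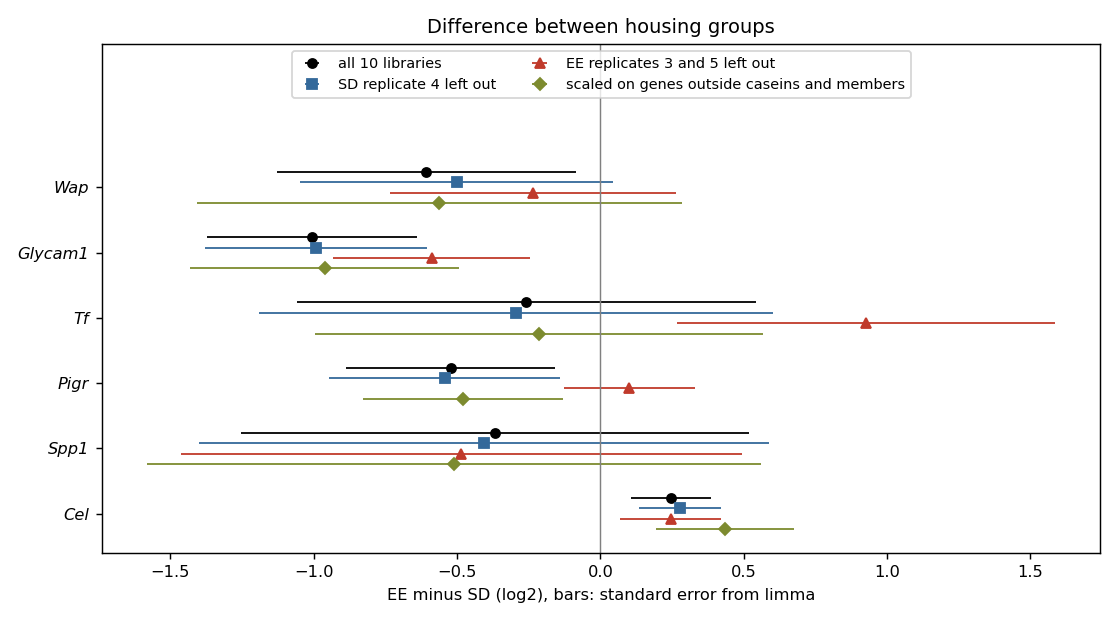
Log2 difference of EE minus SD of each member with its limma standard error, over all 10 libraries, without SD replicate 4, without EE replicates 3 and 5, and scaled on genes outside the caseins and members. Glycam1 stays below 0 in each set and Cel above 0, while Tf and Pigr lie above 0 without EE replicates 3 and 5.

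Across the 10 libraries Wap and Glycam1 followed the summed casein counts. On log2 values Wap had r = 0.961 with the caseins (permutation p = 5e-05, adjusted p = 0.0003 over 6 relations, Spearman's rho = 0.927, permutation p = 0.00038), and r = 0.898 without EE replicates 3 and 5, the libraries farthest from the median casein level. Glycam1 had r = 0.927 (permutation p = 0.00018, adjusted p = 0.00054, rho = 0.879, p = 0.00183) and r = 0.817 without them. Pigr had r = 0.944 (permutation p = 0.00072, adjusted p = 0.00144, rho = 0.745, p = 0.0174) but r = 0.598 without them (permutation p = 0.117), so its relation rested on those libraries. Tf had r = 0.552 (permutation p = 0.0973, adjusted p = 0.144, rho = 0.321, p = 0.369) and r = -0.41 without them. Spp1 had r = -0.18 (permutation p = 0.641, adjusted p = 0.641, rho = -0.19, p = 0.609), and Cel r = -0.52 (permutation p = 0.120, adjusted p = 0.144, rho = -0.67, p = 0.0394). Gene and caseins came from the same libraries and shared their scaling.

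**Figure D5:**
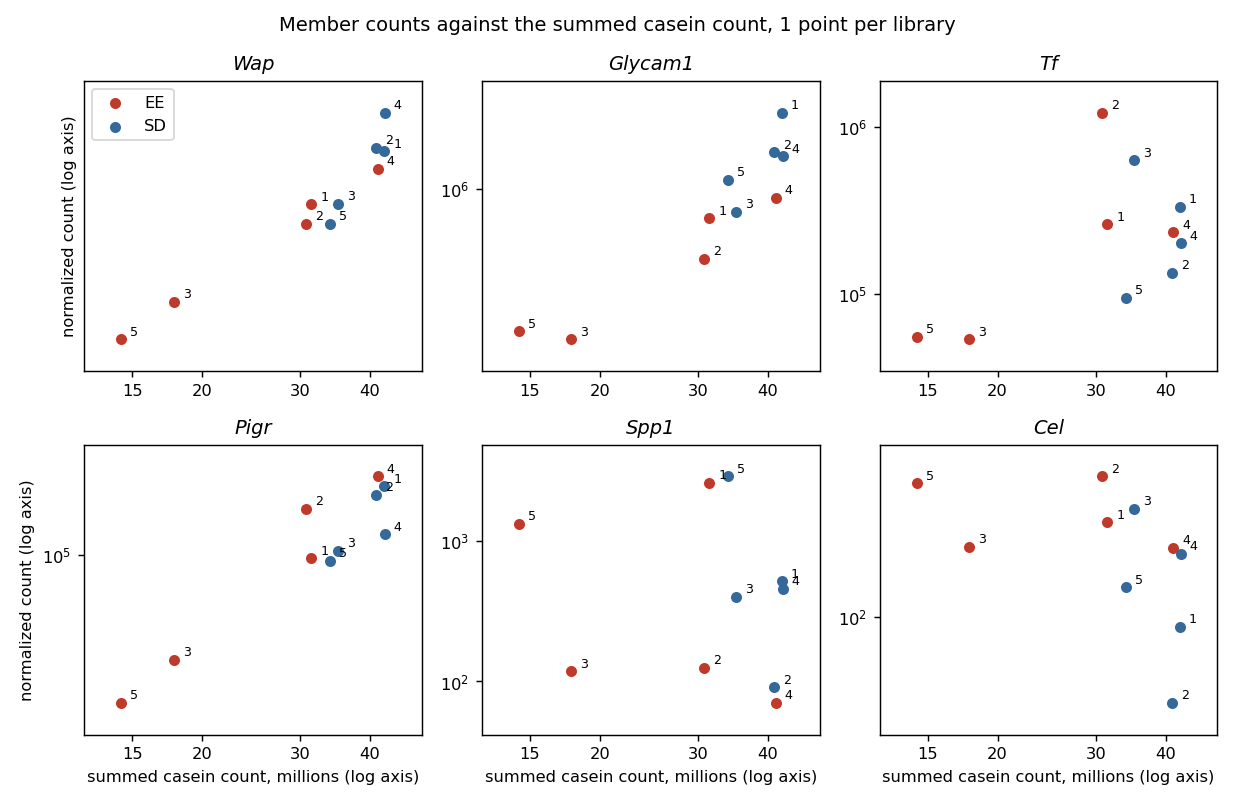
Normalized counts of each member against the summed normalized counts of the 5 casein genes, both axes logarithmic, with 1 point per library coloured by group and labelled by replicate. Wap and Glycam1 follow the caseins along the whole range, and EE replicates 3 and 5 lie at its low end.

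The genes whose levels were most like those of a member differed between members. Likeness was Pearson's r of log2 values over the 10 libraries, among 8135 genes with a mean of at least 100 counts, and is a description. Nearest to Wap were Csn3 (0.982), which encodes kappa-casein, Pigk (0.981), a subunit of the enzyme that attaches GPI anchors, and Dirc2 (0.979). Nearest to Glycam1 were Sectm1a (0.991), Ildr1 (0.989), a protein of tight junctions where cells meet, and Hsd17b11 (0.980), a dehydrogenase of lipid droplets. Pigr stood nearest to RGD1310352 (0.990), Syvn1 (0.989), a ubiquitin ligase of the endoplasmic reticulum, and Rpn2 (0.986), a subunit of the enzyme that attaches N-glycans. Tf stood nearest to Sv2a (0.915), C3 (0.903) and Papss2 (0.887), which makes the sulfate donor of the cell. Spp1 stood nearest to Pla2g7 (0.989), a secreted phospholipase, Fn1 (0.982), fibronectin, and Apoe (0.974), a lipid carrier. Apoe had 1344, 19.0, 49.6, 55.5 and 645 counts in EE, against 211, 80.4, 148, 230 and 1523 in SD. Cel stood nearest to Amacr (0.939), Ppif (0.897) and Ddhd1 (0.896). Among the members the closest were Wap and Glycam1 (0.912) and Wap and Pigr (0.879), while Glycam1 and Cel ran opposite to each other (-0.66).

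Other genes of each member's pathway were read from lists, and no gene of any list passed an adjusted p of 0.05 in either set of libraries. Over all genes tested, the measure for the counts of every list, the median log2 difference was -0.00875 and 52.0% lay below 0. Of all genes, 4.05% were lower and 3.35% higher at an unadjusted p under 0.05 (limma). All 5 casein genes were lower in EE, 1 of them at an unadjusted p under 0.05, with a median of -0.65. Without EE replicates 3 and 5 all 5 lay lower, but the median was only -0.19. After quantile normalization 3 of 4 lay lower and the median was -0.03, since Csn1s2a then had the same value in every library. That median carries little weight, because the scaling sets genes of nearly constant rank to nearly constant values. Csn1s2b, an alpha-S2 casein, differed most, at -0.88 (SE 0.39, unadjusted p = 0.0408 from limma). Among other secreted milk proteins, 11 of 14 tested lay lower and 3 higher, with a median of -0.31, against 6 of 14 and 0.07 without EE replicates 3 and 5. Cp, ceruloplasmin, the copper-bearing ferroxidase of milk and plasma, had a log2 difference of -0.70 (SE 0.27, unadjusted p = 0.0225, adjusted p = 0.631 from limma), and no other of the 14 was below an unadjusted p of 0.05.

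For the iron of transferrin, 7 of 12 iron-handling genes tested lay lower and 5 higher, with a median of -0.18 that was 0.02 without EE replicates 3 and 5. Cp and Steap4, a metalloreductase, were the 2 below an unadjusted p of 0.05. Hamp, which encodes hepcidin, was at 0 in every library. For the mucin-type O-glycans that Glycam1 carries, 11 of 16 genes tested lay lower and 5 higher, none below an unadjusted p of 0.05, with a median of -0.18, against 4 of 15 lower and 0.07 without EE replicates 3 and 5. For the IgA that Pigr ferries, 6 of 9 genes of plasma cells and transcytosis lay lower and 3 higher, with a median of -0.11. Myo5b, a motor of apical recycling vesicles, was below an unadjusted p of 0.05, at 0.25 (SE 0.11, unadjusted p = 0.0350, adjusted p = 0.657 from limma). The plasma cell gene Mzb1 was at 0, and Jchain, another plasma cell gene, was missing from the table.

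Osteopontin receptors and secretory kinases lay lower in 8 of 10 and higher in 2, with a median of -0.28 and none below an unadjusted p of 0.05. Without EE replicates 3 and 5 the count was also 8 of 10, with a median of -0.08. All 6 lipase and lipoprotein genes tested lay lower, with a median of -0.03, but 3 or 4 of 6 did under other scalings, 4 without SD replicate 4 and 2 without EE replicates 3 and 5, and none was below an unadjusted p of 0.05. Lpl, lipoprotein lipase, differed most, at -0.40 (SE 0.28, unadjusted p = 0.176 from limma), and Pnlip, the pancreatic lipase, was at 0. Of 12 genes of prolactin and glucocorticoid control, 7 lay lower and 5 higher, with a median of -0.08. The prolactin receptor Prlr was lower at an unadjusted p under 0.05, with 1564 ± 505 counts in EE and 2367 ± 458 in SD (SD, n = 5 each; log2 difference -0.61, SE 0.21, adjusted p = 0.5995 from limma), and so was Socs2, a feedback inhibitor of cytokine signaling. Stat5a, the transcription factor downstream of that receptor, was higher at an unadjusted p under 0.05, with 11972 ± 810 counts in EE and 10097 ± 1639 in SD (SD, n = 5 each; log2 difference 0.26, SE 0.11, adjusted p = 0.657 from limma).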

How the data were processed

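Milk fat RNA of 5 EE and 5 SD libraries was analysed, grouped by the sample labels. The authors made stranded mRNA libraries, sequenced single-end 100-base reads and aligned them to rn6. The read counter, annotation and filters are not given in the sources used here. For every gene in each library the authors deposited a log2 value, besides a second table of comparisons (mean signal, fold change, error, Wald statistic and p-values), which was not used. The depositors describe these as regularized log values, but they had the form of a variance-stabilizing transformation with a floor of 5.4605, which was inverted to normalized counts. This transformation shrinks differences in genes of low count. Low counts were whole multiples of a step per library (tolerance 0.1 of a read, met by 89.6% to 98.2% of values under 9.5 reads), which gave the depth estimates.

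Of 16748 genes, 3756 had 1 value throughout and were left out. The contrast of EE minus SD was fitted with limma 3.58.1 under R 4.3.3 (lmFit, then eBayes with trend), two-sided, and p-values were adjusted by Benjamini-Hochberg over the 12992 remaining genes. Few genes are as abundant as Wap, so single genes were also compared by two-sided exact permutation tests in Python 3.11.15. Correlations used 100000 permutations. The script was checked on simulated data. Alternatives were the transformation, filter, scaling, moderation, weights, replicate block and left-out libraries. Members and gene lists were chosen with earlier results of these data known, and the rule names all 6 members, the 3 genes most like each, and from each list its extremes and genes below an unadjusted p of 0.05. The libraries EE replicates 3 and 5 were left out together after seeing the data. Promoter windows came from RefSeq (GRCr8), matched by gene ID for 6 of 6 members.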

Additional observations from a re-analysis of the deposited data

Results flagged for a closer look

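In 36 checks of a group of 5 libraries (6 genes, 3 measures, each group), 2 libraries stood apart from the other 4 of their group by Dixon's criterion, which chance meets in about 1 of 20 checks. At that rate 2 of 36 checks are about what chance gives, and the 3 measures of a gene are not independent. Both were on the share of all counts. EE replicate 2 had 2.15% of its normalized counts in Tf, and the next EE library 0.456%. SD replicate 5 had 49.2 of every 1000000 normalized counts in Spp1, and the next SD library 7.44.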

How the results depend on the processing

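Over all genes, 1 gene passed the adjusted threshold after quantile normalization and 3 without EE replicates 3 and 5 and SD replicate 4, and leaving out 1 library gave 0 to 1. Genes lower at an unadjusted p under 0.05 numbered 333 to 679 on leaving out 1 library, and genes higher 292 to 667, with 683 after quantile normalization. The log2 difference of Wap was 0.024 after quantile normalization, that of Tf 0.23, and that of Spp1 0.037 with library weights. Wap kept nearly the same rank in every library, so its value after quantile normalization tells little. Without EE replicates 3 and 5 it was 0.93 for Tf and 0.10 for Pigr, and 0.89 and 0.080 with SD replicate 4 left out too. Leaving out 1 library gave -0.94 to 0.19 for Tf and -0.999 to 0.21 for Spp1, against -1.17 to -0.84 for Glycam1, -0.76 to -0.43 for Wap, -0.77 to -0.24 for Pigr and 0.17 to 0.31 for Cel, which kept their direction.

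For the log2 ratio to the caseins, leaving out 1 library gave -0.043 to 0.087 for Wap, -0.46 to -0.30 for Glycam1, -0.25 to 0.78 for Tf, -0.65 to 0.79 for Spp1 and 0.77 to 1.23 for Cel. Without EE replicates 3 and 5 it was -0.053 for Wap, -0.41 for Glycam1 (exact p = 0.0536), -0.57 for Spp1 and 0.57 for Cel (exact p = 0.107). For the share of all counts, leaving out 1 library gave -0.97 to -0.45 percentage points for Wap, -0.16 to 0.37 for Tf, -0.027 to 0.0076 for Pigr, and, per 1000000 counts, -3.31 to 12.3 for Spp1 and 0.864 to 1.505 for Cel. Without EE replicates 3 and 5 it was -0.53 points for Glycam1 (exact p = 0.0893), 0.031 points for Pigr and 0.668 per 1000000 counts for Cel (exact p = 0.107). The correlation with the caseins was -0.41 for Tf and 0.60 for Pigr without those libraries.

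The replicate numbers did not pair the libraries, with correlations of same-numbered deviations of -0.10 to 0.30, and only replicate 5 was closest to its own number. With the replicate block 698 genes were lower and 402 higher at an unadjusted p under 0.05 and 0 passed the adjusted threshold. The log2 ratio to the caseins with the replicate block was -0.38 for Glycam1 and 1.01 for Cel, each at an exact p of 0.0625, the smallest that 5 pairs allow. The cause of these shifts was not tested. Depth limits Cel, which rests on 71 to 264 reads per library.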

Other observations

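The ratio of Glycam1 to Wap within a library was compared after their values were seen. Its mean log2 value was -1.85 in EE and -1.45 in SD, a difference of -0.40 (two-sided exact permutation test, p = 0.0397, and p = 0.00794 without SD replicate 4, the smallest p that set allows). The choice of this pair was not allowed for in these p-values.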
